A study of Mus musculus with 18 samples.

Results

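Lysosomes are the acidic compartments in which cells break down protein, glycans, nucleic acids and lipids taken up from outside or delivered by autophagy. Their content is made by soluble hydrolases (cathepsins, glycosidases, sulfatases, lipases), by a membrane coat that shields the cytosol and exports the products, and by the V-ATPase, a proton pump with a membrane sector (V0) and a cytosolic sector (V1) that keeps the lumen acidic. In liver, hepatocytes hold many lysosomes, and macrophages, which clear dead cells and collagen fragments, are rich in them too. A set of 50 lysosomal genes was followed here through carbon tetrachloride (CCl4) fibrosis. The genes were listed by name, all 50 were measured, and they were divided by their known cell type into 4 macrophage-type genes (Ctss, Ctsk, Acp5, Atp6v0d2) and 46 general ones. They are 50 of 23111 named genes on the arrays.

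Livers came from adult male C57Bl/6N mice, measured on Affymetrix Mouse Gene 2.0 ST arrays with 3 arrays in each of 6 groups. CCl4, a hepatotoxin that injures hepatocytes around the central vein, was injected i.p. at 1.6 g/kg 2 times a week in olive oil for 2, 4, 6, 8 or 10 weeks, and pieces of the right lobe were taken 2 days after the last injection. By the labels these mice were 12, 14, 16, 18 and 20 weeks old, and the control mice were healthy animals of week 10 and 20 weeks of age. The sources differ on whether the controls received oil or nothing. Age and weeks of CCl4 cannot be told apart among treated mice, and the controls match only week 10 in age. Values are log2 RMA intensities, and their median over all genes and arrays was 4.35, and levels of different genes were not compared. At week 6, replicates 1 and 2 hardly differed. Over the 50 genes their log2 differences had an SD of 0.118, where the 17 remaining same-group pairs had 0.186 to 0.375, so both arrays entered as 1 averaged sample and week 6 has n = 2. A gene was called where limma gave a p, adjusted by Benjamini-Hochberg over all 23111 genes, under 0.05 and the fold change exceeded 1.5.

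The deposited tissue showed hepatocyte and macrophage markers on every array. Hepatocyte markers (7 of 8 measured) summed to 74000 to 80500 linear intensity units in CCl4 livers and 80800 to 82500 in control livers, but the sum says little about hepatocyte content, since albumin (Alb) read 14.12 on every array, the top of the scale. Cyp2e1, the pericentral enzyme that activates CCl4, was called lower at week 6 (-1.12 ± 0.288). Week 10 replicate 2 stood apart by pancreas markers, which summed to 510 on that array, against 149 and 170 in the other week 10 livers and 148 to 241 on all remaining arrays. Its values for the pancreatic enzyme genes Ctrb1 and Cpb1 were 7.67 and 6.42, against at most 5.07 and 3.93 elsewhere. Macrophage markers (17 of 18 measured) summed to 1060 to 1610 in control livers, 3260 to 4760 at week 2, 3090 to 4960 at week 4, 4120 to 6630 at week 6, 2060 to 3040 at week 8 and 2590 to 3390 at week 10. In bulk tissue, more cells of a type and more RNA per cell cannot be told apart, and the part of macrophage content in the results below was not tested.

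Many lysosomal genes carry near their start the palindrome CACGTG, the core of the element bound by the transcription factors TFEB and TFE3, which set lysosomal gene expression. RefSeq start windows (GRCm38.p6, 250 bases before to 50 bases after the start) were matched by symbol for 42 of the 50 genes and searched on both strands. A gene was counted where any of its windows held the motif, so a gene with more than 1 start had more chances. The windows per gene were not compared between the 42 and all genes. CACGTG stood in the windows of 14 of the 42 (33.3%), against 8.09% of all 27025 genes with a window, and the longer TCACGTGA, which contains it, in 6 of the 42, against 1.12%. Among the 42, the palindrome was in 3 of the 13 genes that were called higher at some week of CCl4 and in 11 of the 29 that were not. GAGGAAGT, a site of the myeloid factor PU.1, was in 4 of the 42 (9.52%), against 3.69% of all genes, and these 4, Ctsc, Ctss, Gla and Gusb, were all among the 13. TGACTCA, also searched for, was in 3 of the 42 (7.14%), against 5.95% of all genes, and 1 of these was among the 13. A still longer motif that contains TCACGTGA was searched for too, and it was in 0 of the 42, against 0.37% of all genes. At so low a share, 0 of 42 does not tell these genes from all genes. These motifs were counted with the calls known, and the counts describe letters in a window and were not tested. The windows below are examples chosen with the calls known, each a window that holds the motif, and they show no contrast between groups of genes. Ctsd (chr7:142387778-142388077, minus strand), called at every week, has CACGTG at 245 and 98 bases before the start, the second within TCACGTGA. Lgmn (chr12:102439043-102439342, minus strand) has it 49 bases before. Lamp1 (chr8:13158911-13159210, plus strand), called at no week, holds it 4 times between 61 and 15 bases before its start. Ctss (chr3:95526536-95526835, plus strand) and Ctsc (chr7:88277835-88278134, plus strand) have GAGGAAGT on the opposite strand, where it reads as ACTTCCTC. Sequences run 5' to 3' along each gene, with CACGTG (Ctsd, Lgmn, Lamp1) or ACTTCCTC (Ctss, Ctsc) in capitals.
Ctsd: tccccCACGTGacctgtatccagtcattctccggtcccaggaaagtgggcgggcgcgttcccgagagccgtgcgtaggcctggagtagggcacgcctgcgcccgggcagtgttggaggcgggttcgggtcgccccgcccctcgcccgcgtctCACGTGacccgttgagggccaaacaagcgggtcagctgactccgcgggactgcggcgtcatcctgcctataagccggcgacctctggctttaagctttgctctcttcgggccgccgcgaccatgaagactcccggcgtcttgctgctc
Lgmn: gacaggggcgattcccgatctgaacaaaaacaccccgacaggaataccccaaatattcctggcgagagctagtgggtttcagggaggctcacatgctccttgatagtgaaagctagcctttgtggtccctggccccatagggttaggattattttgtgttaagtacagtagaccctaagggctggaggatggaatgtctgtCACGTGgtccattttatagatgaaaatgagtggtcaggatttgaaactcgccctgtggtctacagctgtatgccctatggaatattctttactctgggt
Lamp1: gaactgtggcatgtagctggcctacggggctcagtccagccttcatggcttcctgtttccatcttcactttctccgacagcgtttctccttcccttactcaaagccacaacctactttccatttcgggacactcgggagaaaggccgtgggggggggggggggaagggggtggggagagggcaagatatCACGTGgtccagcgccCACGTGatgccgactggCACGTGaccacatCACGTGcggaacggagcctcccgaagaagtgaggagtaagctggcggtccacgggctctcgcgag
Ctss: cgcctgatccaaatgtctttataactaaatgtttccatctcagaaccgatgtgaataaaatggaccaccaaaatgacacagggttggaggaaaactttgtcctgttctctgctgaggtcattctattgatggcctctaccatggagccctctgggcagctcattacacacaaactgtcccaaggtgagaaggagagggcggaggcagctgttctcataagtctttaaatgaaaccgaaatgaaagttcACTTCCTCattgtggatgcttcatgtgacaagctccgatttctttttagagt
Ctsc: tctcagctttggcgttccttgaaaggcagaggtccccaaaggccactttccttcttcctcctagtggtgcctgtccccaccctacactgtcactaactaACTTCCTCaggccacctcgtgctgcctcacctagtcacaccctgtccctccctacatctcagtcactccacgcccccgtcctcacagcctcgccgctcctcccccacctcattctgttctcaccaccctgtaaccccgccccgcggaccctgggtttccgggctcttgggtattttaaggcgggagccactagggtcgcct

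Over the whole set, more genes were called higher than lower in CCl4 livers at every week. At week 2, 8 of the 50 were called higher (16%, with 0.831% of all genes called higher), at week 4 it was 4 (8%, all genes 0.528%), at week 6 it was 17 (34%, all genes 2.98%), at week 8 it was 3 (6%, all genes 0.563%) and at week 10 it was 9 (18%, all genes 1.31%). Npc1 at week 6 was the only one of the 50 called lower in a weekly comparison, where 0.575%, 0.355%, 1.86%, 0.398% and 0.762% of all genes were called lower at weeks 2, 4, 6, 8 and 10. Since 49 of the 50 lie above the median level, the nearer background is the 11512 genes above it, of which 1.67%, 1.06%, 5.72%, 1.13% and 2.61% were called higher at weeks 2, 4, 6, 8 and 10. In all, 17 genes were called higher in at least 1 week and 32 were called in none. The share of all genes called in at least 1 week was not counted, so neither count has a background beside it. The weekly counts depend on single arrays. Leaving out control replicate 1, 2 or 3 gave 5, 2 and 2 genes at week 2, 2 each at week 4, and 4, 3 and 4 at week 10. Week 8 fell to 1 without control replicate 2 or 3 or week 8 replicate 1 or 3. Without control replicate 2 or week 8 replicate 3, Ctss, Laptm5 and Ctsd all lost their week 8 calls. The 1 gene called there was therefore none of the original 3. Week 2 fell to 2 without its replicate 2 and to 5 without its replicate 3, week 4 to 2 without its replicate 3, and week 10 to 4 without its replicate 1 and to 3 without its replicate 2, the array with pancreas markers. The 6 genes that lost their week 10 call with that array were Lgmn, Ctsc, Ctsd, Asah1, Atp6v1b2 and Lipa, whose changes without it were 0.83, 0.75, 0.54, 0.74, 0.58 and 0.57, while Ctss, Laptm5 and Acp2 were still called. The part of pancreas RNA in these calls was not tested. The count at week 6 stayed between 13 and 18. The calls that no single omitted array removed were Ctss and Laptm5 at weeks 2, 4, 6 and 10, and at week 6 also Cd63, Lgmn, Ctsd, Atp6v1b2, Hexa, Lipa, Psap and Ctsb.

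**Figure D1:**
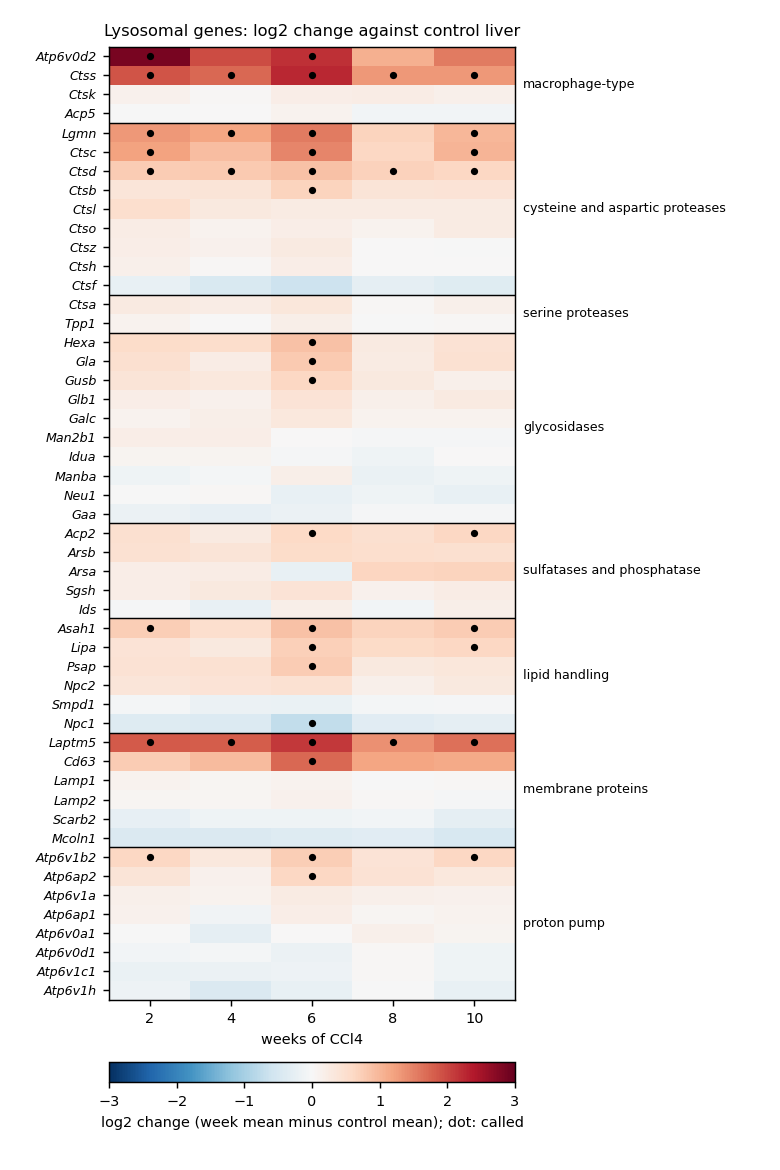
Log2 change of each of the 50 lysosomal genes (rows, grouped by role) against control by weeks of CCl4 (columns, 2 to 10), with red for higher and blue for lower in CCl4 livers and a dot where the gene was called. Dots are densest at week 6, where 18 genes were called, and strong colour is seen in Ctss, Atp6v0d2, Laptm5, Lgmn, Ctsc and Cd63.

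The shift of most genes was small. The 46 general genes had a median log2 change of 0.19, 0.13, 0.24, 0.12 and 0.15 at weeks 2, 4, 6, 8 and 10, while the median over all genes was -0.01 or -0.02. The median of the 4 macrophage-type genes was 1.00, 0.88, 1.20, 0.64 and 0.72, but it stands for no single gene, since only Ctss was called at all 5 weeks, Atp6v0d2 was called at weeks 2 and 6 and the other 2 at none. Week 8 replicate 3 weighed on it: without that array the week 8 median was 0.28. Laptm5, a lysosomal membrane protein of leukocytes that the list counts as general, had changes close in size to those of Ctss, and counting it as macrophage-type gave medians of 1.83, 1.72, 2.12, 1.07 and 1.29.

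Ctss encodes cathepsin S, the cysteine protease with which antigen-presenting cells process the invariant chain. Its intensity was 8.31, 7.91 and 8.25 in the control livers, 9.70, 10.46 and 9.97 at week 2, 9.75, 9.72 and 10.17 at week 4, 10.73, 10.72 and 10.14 at week 6, 9.37, 9.31 and 9.71 at week 8, and 9.78, 9.37 and 9.19 at week 10. Every CCl4 liver lay above every control liver, and the highest values fell at week 6. The log2 change was 1.88 ± 0.226 (SE) at week 2, 1.72 ± 0.226 at week 4, 2.27 ± 0.253 at week 6, 1.30 ± 0.226 at week 8 and 1.29 ± 0.226 at week 10, which is 4.84-fold at week 6 and 2.44-fold at week 10. All 5 changes were called, with limma adjusted p between 0.000336 and 0.0122. The week 8 call was lost without control replicate 2 (adjusted p = 0.0589) or week 8 replicate 3 (0.0598).

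Atp6v0d2 encodes the d2 subunit of the V0 sector, an isoform of macrophages and osteoclasts, and its change at week 2 was 2.85 ± 0.573, or 7.23-fold. Control livers read 5.73, 4.37 and 4.65, and week 2 livers 7.11, 8.70 and 7.50. Weeks 4, 6, 8 and 10 read 6.69, 6.37 and 7.54, then 7.39, 7.82 and 6.61, then 5.77, 4.95 and 7.23, then 6.59, 6.30 and 6.51. Only week 8 replicate 2 fell inside the control range, and the control livers themselves spread over more than 1 log2 unit. The gene was called at week 2 (adjusted p = 0.0208) and week 6 (2.19 ± 0.641, adjusted p = 0.0482) and at no other week (1.95, 1.07 and 1.55 at weeks 4, 8 and 10). The week 6 call was lost under 14 of 27 alternatives and the week 2 call under 4, with adjusted p up to 0.129 and 0.104, the week 2 call among them without control replicate 2 or 3 or week 2 replicate 2, and the week 6 call without control replicate 2 or 3, without week 6 replicate 2 or 3 and without 8 arrays of other weeks. The paralogous d1 subunit, Atp6v0d1, which most cells use, read 9.46, 9.48 and 9.36 at week 6 and 9.58, 9.50 and 9.66 in control livers, a change of -0.17 (95% confidence interval -0.32 to -0.02, adjusted p = 0.149).

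The other 2 macrophage-type genes were not called at any week. Ctsk, the collagen-degrading cathepsin K of osteoclasts, lay at the low end of the array, with 4.20 to 4.60 in CCl4 livers and 4.14 to 4.23 in control livers, and its change at week 6 was 0.20 (95% confidence interval 0.01 to 0.39). Acp5, the tartrate-resistant acid phosphatase of osteoclasts and some macrophages, was well above the array median but read 9.08 to 9.52 in CCl4 livers and 9.12 to 9.42 in control livers. The control range lay within the CCl4 range, and its change over all CCl4 weeks was -0.01 (95% confidence interval -0.18 to 0.15), an interval that leaves out a 1.5-fold change. Of the 6 osteoclast markers, limma called 0 at every week (0 to 2 had an unadjusted p under 0.05), and their summed intensity was 130 to 161 in CCl4 livers and 135 to 143 in control livers. Calcr, Oscar and Dcstamp read 3.78 to 4.16, under the median of all values (4.35) on every array, where a change may be missed.

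**Figure D2:**
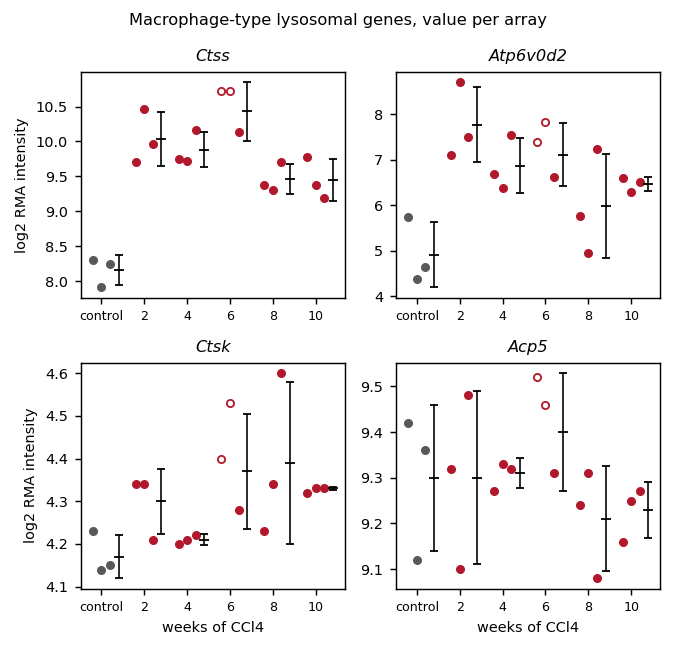
Log2 RMA intensity of the 4 macrophage-type lysosomal genes on each array (points, grey for control and red for CCl4) against weeks of CCl4, with the group mean and SD in black beside them and week 6 replicates 1 and 2 as open points, entered as their mean. Ctss is at 9.19 or more in every CCl4 liver and at 8.31 or less in every control liver, whereas Acp5 stays between 9.08 and 9.52 throughout.

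Among the general proteases, 4 of the 9 cysteine and aspartic enzymes were called higher at week 6 (44.4%, all genes 2.98%). The calls at the other weeks were among these 4, and higher too. Lgmn, the asparaginyl endopeptidase that cuts cathepsins into their mature forms, read 8.76, 8.50 and 8.60 in control livers, 9.66, 10.20 and 9.86 at week 2, 9.46, 9.75 and 10.20 at week 4, 10.47, 10.47 and 9.91 at week 6, 9.65, 8.92 and 9.29 at week 8 and 9.67, 9.95 and 9.23 at week 10. No CCl4 liver overlapped the controls. The change was 1.57 ± 0.276 at week 6, or 2.97-fold, and the gene was called at all weeks but week 8 (0.66, adjusted p = 0.226). Ctsc, the dipeptidyl peptidase that activates granule serine proteases, read 8.92, 8.74 and 8.38 in control livers and 9.02 to 10.25 in CCl4 livers, with changes of 1.20 ± 0.266 at week 2, 1.46 ± 0.297 at week 6 and 1.02 ± 0.266 at week 10, all called. Its week 10 call rests on replicate 2, the array with pancreas markers and the highest at 10.25, without which the change was 0.75 (adjusted p = 0.148), and it was lost without 10 other arrays too. Ctsc also lost its week 2 call without any 1 control or week 2 array and its week 6 call without week 6 replicate 3 (adjusted p = 0.0779). Lgmn lost its week 2 call without control replicate 2 or 3 or week 2 replicate 2, its week 4 call without any control or week 4 replicate 2 or 3, and its week 10 call without any control or week 10 replicate 1 or 2.

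Ctsd, the main aspartic protease of the lysosome, was called higher at every week. It read 10.69, 10.76 and 10.74 in control livers and, in the order of weeks, 11.50, 11.63 and 11.31, then 11.52, 11.27 and 11.73, then 11.82, 11.88 and 11.38, then 11.49, 11.24 and 11.54, then 11.41, 11.55 and 11.13. The 15 CCl4 arrays were all above the 3 control arrays, and the changes, 0.75, 0.78, 0.88, 0.70 and 0.63 (SE 0.150, at week 6 0.167), lay within a narrow band. Outside week 6 each call was lost without any 1 of the control arrays, and without 2 to 4 CCl4 arrays (adjusted p up to 0.129). Ctsb, the most studied cysteine cathepsin, read 12.34 to 12.82 in CCl4 livers and 12.04 to 12.18 in control livers. It was called at week 6 alone (0.67 ± 0.0945, adjusted p = 0.0013), although its adjusted p was under 0.05 at the other weeks too, where changes of 0.36 to 0.42 stayed under the fold threshold. Ctsl, Ctso, Ctsz, Ctsh and Ctsf, the other cathepsins of the group, were not called at any week, with week 6 changes of 0.24, 0.20, 0.26, 0.20 and -0.61. Ctsl had its highest mean at week 2 (11.53, 11.55 and 11.37), against 11.08, 10.86 and 10.99 in control livers. Neither serine protease was called: Ctsa, which protects other hydrolases in a complex, changed by 0.34 at week 6 (adjusted p = 0.0268, under the fold threshold), and the tripeptidyl peptidase Tpp1 by 0.18.

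Of the membrane proteins, Laptm5 and Cd63 rose and the 2 main structural ones were not called. Laptm5 read 7.65, 6.87 and 7.40 in control livers, 8.89, 9.27 and 9.26 at week 2, 8.81, 9.07 and 9.49 at week 4, 9.82, 9.75 and 9.08 at week 6, 8.99, 8.36 and 8.65 at week 8 and 9.17, 9.11 and 8.62 at week 10. Its change was 1.83 ± 0.259, 1.82 ± 0.259, 2.12 ± 0.289, 1.36 ± 0.259 and 1.66 ± 0.259, called at all 5 weeks without any overlap of the groups. The week 8 call was lost without control replicate 2 or 3 or without week 8 replicate 1 or 3 (adjusted p 0.0618 to 0.0813). With only the 2 groups compared in the fit, its calls at weeks 4 and 8 were lost (adjusted p = 0.0536 and 0.0708). Cd63, a tetraspanin of late endosomes and exosomes, was at the low end of the array in control livers (3.91, 4.33 and 3.92) and read 4.39 to 5.83 at weeks 2, 4, 8 and 10, and 6.16, 6.11 and 5.41 at week 6. The control values lie below the median of all values (4.35), so the size of any fold against them is uncertain. It was called at week 6 (1.72 ± 0.341, 3.29-fold as fitted) and not at weeks 2, 4, 8 or 10 (0.76, 0.96, 1.18 and 1.14, adjusted p 0.0507 to 0.242).

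Lamp1 and Lamp2, the heavily glycosylated proteins that line the membrane and the usual markers of lysosome number, read 11.54 to 11.84 and 10.99 to 11.36 in CCl4 livers, against 11.56 to 11.70 and 11.17 to 11.24 in control livers. Their changes at week 6 were 0.11 (95% confidence interval -0.06 to 0.29) and 0.13 (-0.04 to 0.30), which leaves out a 1.5-fold rise at the time of the most calls. Scarb2, a membrane protein that also sorts enzymes to the lysosome, was not called (-0.12 at week 6). Mcoln1, a cation channel that releases lysosomal calcium, read 7.98 to 8.44 in CCl4 livers and 8.64, 8.55 and 8.64 in control livers, with no overlap. Its change over all CCl4 weeks was -0.41 ± 0.0879 (adjusted p = 0.0127), under the fold threshold.

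**Figure D3:**
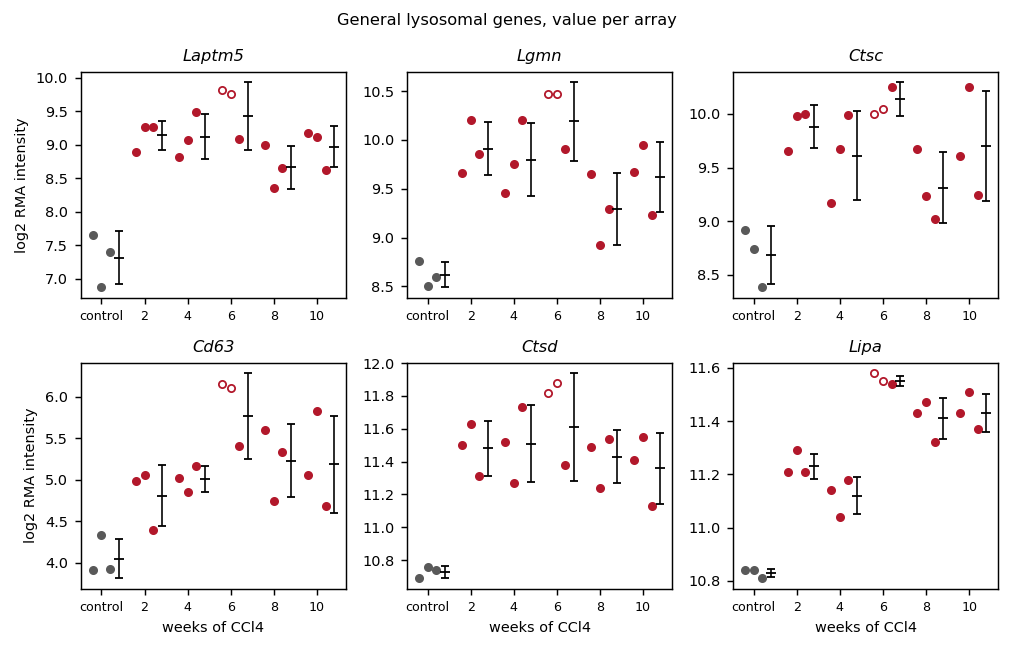
Log2 RMA intensity of 6 general lysosomal genes on each array (points, grey for control and red for CCl4) against weeks of CCl4, with the group mean and SD in black and week 6 replicates 1 and 2 as open points, entered as their mean. In all 6 panels the 15 CCl4 arrays lie above the 3 control arrays, and Lipa has control arrays from 10.81 to 10.84. The 6 were chosen among genes called against these same controls, which favours such separation. Its share over all genes was not counted.

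Of the 6 lipid handling genes, 3 were called higher at week 6 (50%, all genes 2.98%) and 1 lower (all genes 1.86%). No further lipid handling gene was called at the other weeks. Lipa, the acid lipase that frees cholesterol and fatty acids from lipoproteins and lipid droplets, read 10.84, 10.84 and 10.81 in control livers, 11.21, 11.29 and 11.21 at week 2, 11.14, 11.04 and 11.18 at week 4, 11.58, 11.55 and 11.54 at week 6, 11.43, 11.47 and 11.32 at week 8 and 11.43, 11.51 and 11.37 at week 10. Its changes were 0.41, 0.29, 0.72, 0.58 and 0.61, with an SE of 0.0485 (0.0542 at week 6) and adjusted p of 0.0123 or less at every week. The fold passed 1.5 at weeks 6 and 10 only, at 1.65 and 1.52. Asah1, the acid ceramidase, read 7.98 to 8.69 in CCl4 livers and 7.38 to 7.92 in control livers and was called at weeks 2, 6 and 10 (0.73 ± 0.158, 0.89 ± 0.177 and 0.76 ± 0.158). These calls were lost without control replicate 2 or 3 at weeks 2 and 10, without week 2 replicate 2 or 3, without week 6 replicate 3 (adjusted p = 0.0679) and without week 10 replicate 2, and that of Lipa at week 10 without week 10 replicate 2, where the change of 0.57 was under the fold threshold. Psap, the precursor of the saposins that present sphingolipids to their hydrolases, was called at week 6 (0.75 ± 0.144), where it read 11.69, 11.70 and 11.22, against 10.76, 10.67 and 10.69 in control livers.

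Npc1 and Npc2 hand cholesterol out of the lysosome, Npc2 in the lumen and Npc1 in the membrane. Npc1 read 9.68, 9.65 and 9.91 at week 6 and 10.64, 10.35 and 10.59 in control livers, with no overlap, a change of -0.74 ± 0.171 (adjusted p = 0.0172). At the other weeks its change was between -0.42 and -0.28 and was not called. The week 6 call was lost without control replicate 1 (adjusted p = 0.0539) or 3 (0.0545). Npc2 changed the other way, by 0.46 ± 0.102 at week 6 (adjusted p = 0.0141), under the fold threshold. The acid sphingomyelinase gene Smpd1 was not called (-0.20 at week 6).

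The glycosidases, which take glycans apart sugar by sugar, were called at week 6 or not at all. Hexa, the alpha subunit of hexosaminidase, read 9.91, 9.84 and 9.40 at week 6 and 8.82, 8.71 and 8.75 in control livers (0.88 ± 0.175, adjusted p = 0.00815). Gla, the alpha-galactosidase, and Gusb, the beta-glucuronidase, changed by 0.78 ± 0.207 (adjusted p = 0.0329) and 0.62 ± 0.154 (0.0242) at week 6. Gla lost its call without any 1 of the control arrays, and without week 6 replicate 3. Glb1 and Galc had adjusted p of 0.045 and 0.0421 at week 6 with changes of 0.42 and 0.32, under the fold threshold, and Neu1, Man2b1, Manba, Idua and Gaa were not called, with week 6 changes between -0.23 and 0.17. Among the sulfatases and the phosphatase, only the acid phosphatase Acp2 was called, at week 6 (0.59 ± 0.157, adjusted p = 0.0329) and week 10 (0.63 ± 0.140, adjusted p = 0.0238), and it read 8.33 to 8.98 in CCl4 livers and 8.11 to 8.36 in control livers, with week 4 replicate 1 inside the control range. The Acp2 calls were lost without control replicate 1 or 2, without week 6 replicate 3 and without week 10 replicate 1 or 3, and that of Gusb without control replicate 1 or week 6 replicate 2. Arsb, a sulfatase called at no week, read 8.91 to 9.51 in CCl4 livers and 8.68 to 8.78 in control livers, without overlap. Arsa, the cerebroside sulfatase, read 5.34, 5.53 and 6.11 at week 6, 6.93, 6.40 and 6.61 at week 8 and 6.62, 6.87 and 6.52 at week 10, against 5.96, 6.34 and 5.71 in control livers. The low values of week 6 are those of replicates 1 and 2, which count as 1 sample. Its change in weeks 8 and 10 against weeks 4 and 6 was 0.66 ± 0.156 (unadjusted p = 0.000978 in the limma fit, adjusted p = 0.173) and was not called.

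Of the 8 general genes of the proton pump, Atp6v1b2 and Atp6ap2 were called. Both were called at week 6 (25%, all genes 2.98%), 1 was called at weeks 2 and 10 (12.5%) and 0 at weeks 4 and 8. Atp6v1b2, the B2 subunit of the V1 ring, read 8.53, 8.31 and 8.17 at week 6 and 7.63, 7.53 and 7.54 in control livers, and was called at weeks 2, 6 and 10 (0.63 ± 0.145, 0.73 ± 0.163 and 0.62 ± 0.145). Atp6ap2, an accessory protein also known as the prorenin receptor, was called at week 6 (0.61 ± 0.151, adjusted p = 0.0237). The calls of Atp6v1b2 at weeks 2 and 10 were lost without any 1 of the control arrays and without 6 and 3 CCl4 arrays, and that of Atp6ap2 without control replicate 2 or 3 or week 6 replicate 3. The remaining 6 changed at week 6 by between -0.22 (Atp6v1h) and 0.24 (Atp6v1a). Atp6v1h, a regulatory V1 subunit, read 5.83, 5.77 and 5.64 at week 4 and 6.20, 6.13 and 6.22 in control livers, a change of -0.44 ± 0.0688 (adjusted p = 0.00909) just short of the fold threshold. Of 12 further V-ATPase genes, limma called 0 at week 6, with 7 at an unadjusted p under 0.05, and they ran in both directions: Tcirg1, the a3 subunit of macrophages and osteoclasts, changed by 0.55 (adjusted p = 0.0498) and Atp6v1g2 by -0.55 (adjusted p = 0.0114).

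**Figure D4:**
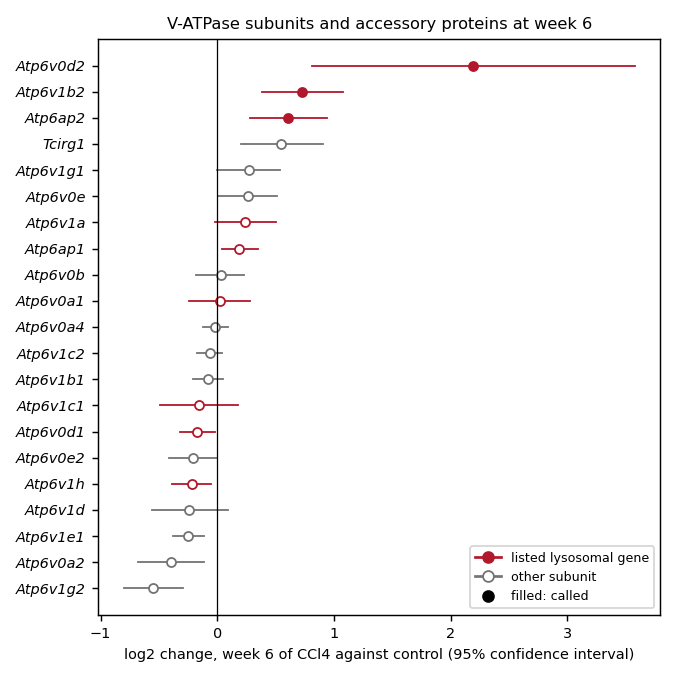
Log2 change at week 6 of CCl4 against control (points) with 95% confidence intervals (lines) for V-ATPase subunits and accessory proteins, with the listed lysosomal genes in red, other subunits in grey, and filled points for genes that were called. Atp6v0d2 stands at 2.19, Atp6v1b2 at 0.73 and Atp6ap2 at 0.61, and the other subunits lie between -0.55 and 0.55.

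Week 6 stood out by count, but a direct test between weeks called no gene. Of the 17 genes called higher at week 6, 7 were called at no other week (Ctsb, Hexa, Gla, Gusb, Psap, Cd63, Atp6ap2). The share of week 6 calls found at no other week was not counted over all genes, so the 7 have no background beside them. In the comparison of week 6 with week 4, 41 of the 50 were higher at week 6 and 0 were called by limma (of all genes 0.134% were called higher and 0.0346% lower), with 15 at an unadjusted p under 0.05. Lipa alone passed the adjusted p (0.43 ± 0.0542, adjusted p = 0.0143), under the fold threshold. In week 10 against week 6, 14 of the 50 were higher, 0 were called (all genes called lower 0.013%) and 10 had an unadjusted p under 0.05, and in weeks 8 and 10 against weeks 4 and 6, 0 were called (all genes 0) and 16 had an unadjusted p under 0.05. So the larger number of calls at week 6 is not shown to be a difference between weeks. Over all CCl4 weeks together, 8 genes were called higher and 0 lower (of all genes 1.64% higher and 0.939% lower), namely Ctss, Atp6v0d2, Laptm5, Cd63, Lgmn, Ctsc, Ctsd and Asah1, and 20 passed the adjusted p with any fold. Without control replicate 3 the 8 became 5.

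Of 25 further lysosomal enzymes and membrane proteins, 2 were called higher at week 6 (8%, all genes 2.98%), 2 at week 10 (8%, all genes 1.31%), 1 each at weeks 2 and 4 and 0 at week 8. Those of week 6 were Cd68, the lysosomal sialomucin of macrophages (2.53 ± 0.417), and the sulfatase Galns (1.07 ± 0.312, adjusted p = 0.0475), and the thioesterase Ppt1 was called with Cd68 at week 10 (0.66 ± 0.0804). Their median change at week 6 was 0.00. Among 15 regulators and sorting receptors, Fnip1, a partner of folliculin in nutrient signalling at the lysosome, was called lower at weeks 4 and 6 (-0.65 ± 0.145 and -0.86 ± 0.162), and the sorting receptor Sort1 at week 10 (-1.03 ± 0.233). Tfeb changed by -0.28 ± 0.0447 at week 6 (adjusted p = 0.00276) and its relative Tfe3 by 0.18 (adjusted p = 0.21), both under the fold threshold, and the mannose 6-phosphate receptor gene M6pr by 0.45 ± 0.0833 (adjusted p = 0.00547). Tfeb read 4.32 to 4.49 at week 6 and 4.62 to 4.70 in control livers. These values lie close to the median of all values (4.35), so the size of its change is uncertain. None of the 6 cathepsin inhibitor genes was called by limma at any week, with 2 at an unadjusted p under 0.05 at week 6.

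Macrophage markers were called higher at every week too. Of 17 measured, 10, 9, 12, 4 and 8 were called higher at weeks 2, 4, 6, 8 and 10, among them Adgre1, a macrophage surface marker, which read 6.42 to 7.99 in CCl4 livers and 5.33 to 6.18 in control livers, and Csf1r, the receptor for macrophage colony-stimulating factor, with a week 6 change of 1.28. Cd68 is on this list as well as among the lysosomal genes. The largest changes at week 6 were those of Gpnmb (5.48), a glycoprotein of lipid-laden macrophages, Clec7a (3.20), the receptor dectin-1, and Cd68 (2.53). Of the 6 Kupffer cell markers 2, 0, 2, 0 and 1 were called, and the defining markers Clec4f and Timd4 were not called at any week (0.22 and -0.01 at week 6). At week 2 all 6 were higher than in control livers (median change 1.14), each with an unadjusted limma p under 0.05. Kupffer cell markers summed to 642 to 930 in control livers, 1720 to 2680 at week 2 and 1210 to 2400 at week 4. At weeks 6, 8 and 10 the sums were 1400 to 1950, 883 to 1490 and 1080 to 1490. Activated stellate cell markers also rose in sum, to 2210 to 5090 at week 6 and 860 to 1860 at the other weeks, against 318 to 363 in control livers. Of 5 cell cycle markers, 5 were called higher at week 6 and 0 at the other weeks, with a sum of 1070 to 1360 at week 6 and 134 to 652 at the other weeks, against 107 to 124 in control livers. Of 5 endothelial markers, 2 were called at week 2 and 1 at week 10, with sums of 1730 to 1930 and 1690 to 1900, against 1090 to 1460 in control livers. The part of these cell types, and of cell division, in the changes of the lysosomal genes was not tested.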

How the data were processed

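Preprocessing of the 18 arrays by the authors used affyPLM with an Entrez-based Brainarray chip definition, which gave the deposited log2 RMA intensities. No version of RMA is stated in the sources used here. No background correction or normalization was repeated. The table holds 23748 features, of which 637 without a gene name were left out and 23111 were tested. Listed marker or pathway genes without a named feature (13) were not analysed here. Comparisons were made in limma (version 3.58.1, under R 4.3.3, with lmFit and eBayes and 1.79 prior degrees of freedom) in 1 model with a mean per group over 17 samples, week 6 replicates 1 and 2 entering as their mean. The Benjamini-Hochberg adjustment ran over all tested genes, and a call needed an adjusted p below 0.05 with a fold change of more than 1.5. Labels name biological replicates, and p-values measure the spread between these arrays. The number of arrays limits the precision. SE and 95% confidence intervals come from the model, and SD is the spread in a group.

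The genes, lists and tests were chosen with earlier results of these data known. The text names the macrophage-type genes, up to 12 called general genes with the largest change over all CCl4 weeks, genes changed between weeks, paralogs, defining markers and up to 4 called genes of each list. Others, such as Npc1, Gla, Gusb, Atp6ap2, Mcoln1, Arsa, Arsb and Atp6v1h, were named after their values were seen. The pipeline was tested on simulated data. Start windows came from RefSeq (GRCm38.p6), and figures were drawn in matplotlib 3.10.9 under Python 3.11.15. Alternatives were 18 separate arrays, a robust limma-trend prior, a separate fit of each comparison's groups, a filter on low values (above the 40th percentile on at least 3 arrays), median centring, quantile normalization, no fold threshold, a fold above 2, a replicate block, and each array left out in turn.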

Additional observations from a re-analysis of the deposited data

Results flagged for a closer look

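Lipa, the lysosomal acid lipase gene, was higher at week 6 (11.58, 11.55 and 11.54) than at week 4 (11.14, 11.04 and 11.18) by 0.43 ± 0.0542 on the log2 scale, with no overlap (limma adjusted p = 0.0143, under the fold threshold of 1.5). It was set apart because the change against control differed between these 2 weeks, which share their control arrays, by a direct test. Over the alternatives the difference was 0.39 to 0.46 and its adjusted p 0.00286 to 0.226.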

How the results depend on the processing

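No called change reversed its sign under any alternative. Median centring and quantile normalization changed no call, and the median of all genes moved by at most 0.001 under them. With the groups of a comparison fitted alone, 5 genes were called at week 2 and 1 at week 4. With low values left out, 5 were called at week 8. With no fold threshold, 8 were called at week 4, 5 at week 8, 20 over all CCl4 weeks and 1 in week 6 against week 4. With a fold above 2, 5 were called at week 2, 6 at week 6 and 3 at week 10. With Laptm5 counted as macrophage-type, the medians of that group were 1.83, 1.72, 2.12, 1.07 and 1.29 at weeks 2, 4, 6, 8 and 10 and 1.69 over all CCl4 weeks. With each array left out in turn, the counts ranged from 2 to 8 at week 2, 2 to 4 at week 4, 13 to 18 at week 6, 1 to 4 at week 8, 3 to 9 at week 10, 5 to 8 over all CCl4 weeks and 0 to 1 in week 6 against week 4 (1 without week 4 replicate 3). The median of the general genes ranged from 0.19 to 0.31 at week 6 and that of the macrophage-type genes from 0.28 to 0.81 at week 8. Over all CCl4 weeks the calls of Atp6v0d2 (without control replicate 2 or 3), Cd63 (without 1 or 3), Ctsc (without 3) and Asah1 (without 2) were lost. The replicate numbers are only names: over 45 same-numbered pairs the correlation of deviations had a median of -0.00148, and 7 of 18 arrays were closest to their own number. With the replicate block and 18 separate arrays, 8, 4, 18, 3 and 10 genes were called at weeks 2, 4, 6, 8 and 10 and 8 over all CCl4 weeks, and Cd63 at week 10 was the only call that changed (adjusted p = 0.0422). The causes of these changes were not tested. With 3 arrays a group and 2 samples at week 6, genes with small changes may have been missed. Ctsk, Tfeb, several osteoclast markers and, in control livers, Cd63 lie near the lower end of the array's range.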
